A study of Mus musculus with 11 samples.

Results

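The 10 genes described here encode parts of the Nodal and activin pathway: the ligand Nodal, its inhibitors Lefty1 and Lefty2, the co-receptor Tdgf1, the receptor Acvr2b, the signal transducers Smad2 and Smad3, their nuclear partner Foxh1, and the inhibitors Smad7 and Skil. All 10 were found in the mm9 gene annotation, among 22367 protein-coding genes. A window was drawn over each gene body and 50 kb on either side, and every peak with its midpoint in a window was taken. The windows held 673 of the 1004445 peaks in the 10 deposited lists. The windows of Lefty1 and Lefty2 overlap because the genes lie in tandem, so peaks shared by these windows were counted once in totals and for both genes in counts by gene.

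Nodal and activin bind a type I and type II receptor pair on the cell surface, and Nodal also needs a co-receptor of the Tdgf1 kind. The receptors phosphorylate SMAD2 and SMAD3, which enter the nucleus with SMAD4 and bind DNA with partners such as FOXH1. Nodal, Lefty1, Lefty2 and Smad7 are known targets of the same signal, which gives the pathway positive and negative feedback. In the epiblast and in epiblast stem cells (EpiSCs), the pathway maintains the primed pluripotent state.

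Mouse 129/Sv EpiSCs were grown without feeders in N2/B27 medium supplied with activin at 20 ng/ml and Fgf2 at 10 ng/ml, and ChIP-seq was performed for the transcription factors (TFs) ZIC2, OTX2, SOX2, POU5F1 and POU3F1. The activin-free cultures were the same cells deprived of activin for the last 18 hr before harvest. Each TF was supplied by transient transfection of a pCAGGS vector, carried a biotinylated BLRP tag and was pulled down with streptavidin, so the peaks record exogenous, tagged protein. There was 1 library per TF and culture, 10 in all, and the input control was not analysed here.

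A peak score is -10 times the log10 of the peak caller's p-value, so a higher score marks a peak further above background. The lowest score in a list was 50, and scores stopped rising near 3100, so values there are floors. The lists held from 62457 peaks for POU5F1 in EpiSCs to 126908 for POU5F1 in activin-free culture, and read depths were unknown. The median score of every TF was higher in its activin-free list, at 199 against 170 for ZIC2 and 208 against 133 for POU5F1. Scores are given as deposited, and a higher score in activin-free culture does not by itself show stronger binding. With no replicate libraries, no test of the cultures was possible. The 95% intervals given are exact Poisson or exact binomial intervals, or exact conditional intervals for ratios, and they cover counting error only. The lists hold no expression values, so the identity of the cells was taken from the labels.

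ZIC2 was the most frequent TF around these genes. The windows held 226 ZIC2 peaks in EpiSCs, against 91 of OTX2, 21 of SOX2, 19 of POU5F1 and 1 of POU3F1. The median density of ZIC2 peaks over the 10 members was 23.0 per 100 kb, against 6.80 over all protein-coding genes, and 9 of the 10 members lay above that median. The corresponding OTX2 medians were 6.82 and 6.21 per 100 kb, and those of POU5F1 were 1.69 and 1.43. SOX2 was sparser around the members, at 0.953 per 100 kb against 1.44.

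These densities moved with the GC content of the windows. Protein-coding genes were split into quintiles of window GC, a split chosen after values of these data were seen. The windows of Nodal, Lefty1, Foxh1, Smad3, Smad7 and Acvr2b were in the highest quintile, those of Lefty2 and Tdgf1 in the next, and those of Smad2 and Skil in the middle one. The median ZIC2 density of all protein-coding genes rose from 0.991 per 100 kb in the lowest quintile to 13.2 in the next to highest and 23.5 in the highest, the last close to the 23.0 of the members. The median SOX2 density fell over the same quintiles from 2.97 to 0. Smad2 and Skil, with the lowest GC of the members, also had the fewest ZIC2 and the most SOX2 peaks. The part of GC content in the results was not tested.

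At least 1 ZIC2 peak lay in the windows of 10 of 10 members in EpiSCs, where 93.1% of all protein-coding genes had one. OTX2 was also present in 10 of 10 windows, with a background of 93.3%. SOX2 was present in 7 of 10 (background 75%) and POU5F1 in 8 of 10 (background 77.3%). POU3F1, which has the same kind of DNA-binding domain as POU5F1, was present in 1 of 10 windows, with a background of 47.8%. Its only EpiSC peak was in Skil, with a score of 57.7. In the highest GC quintile 8.14% of genes had a POU3F1 peak in EpiSCs, and in the lowest 89.7%. In activin-free culture ZIC2 was present in 10 windows (background 92.3%), OTX2 in 10 (95.6%), SOX2 in 7 (85.6%), POU5F1 in 8 (89.5%) and POU3F1 in 4 (53%).

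**Figure D1:**
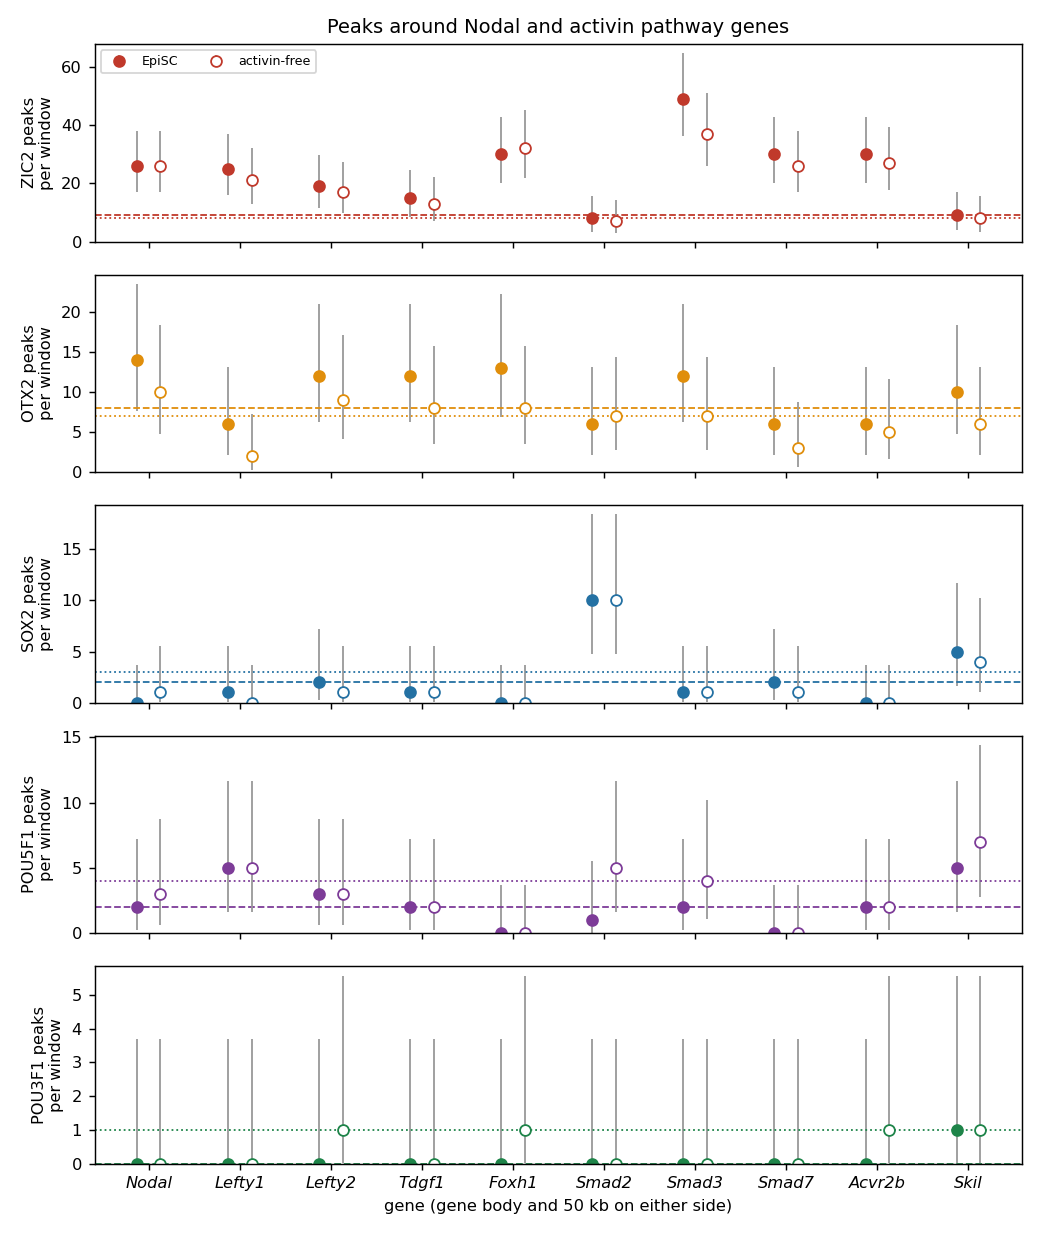
Number of peaks per gene window for each TF, in EpiSCs (filled points) and activin-free culture (open points), with exact 95% Poisson intervals; each point is 1 library. Dashed and dotted lines are the medians over all protein-coding genes in EpiSCs and activin-free culture. ZIC2 counts lie from 8 to 49 in EpiSCs, and POU3F1 has a peak in 1 of the 10 windows.

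The transcription start site (TSS) was covered by a ZIC2 peak in 10 of 10 members in EpiSCs and in 9 of 10 in activin-free culture. The backgrounds were 61.6% and 59.8% of protein-coding genes, and 84.1% and 81.5% in the highest GC quintile. In EpiSCs the scores of these TSS peaks ran from 174 at Lefty2 and 241 at Smad2 to 2946 at Skil, 3100 at Smad7 and 3207 at Smad3. The exception in activin-free culture was Tdgf1, where the peak remained with a score of 1155 but its midpoint lay at -1.25 kb from the TSS (negative distances are upstream) and its edge fell short of the TSS. An OTX2 peak covered the TSS of 1 of 10 members, Foxh1, in both cultures, with backgrounds of 9.52% and 9.1%. No TSS of the 10 members was covered by a peak of SOX2, POU5F1 or POU3F1. The backgrounds for these TFs were also low, at 1.44% and 5.12% for SOX2 in EpiSCs and activin-free culture, 0.747% and 1.8% for POU5F1, and 1.57% and 2.89% for POU3F1.

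ZIC2 counts changed little between cultures. The windows held 226 ZIC2 peaks in EpiSCs and 201 in activin-free culture, a ratio of 0.889 (95% interval 0.732 to 1.08), and the whole lists had a ratio of 0.895. By gene, ZIC2 peaks were fewer in 8 of 10 members, where 63.1% of tested genes had fewer, and more numerous in 1, Foxh1, where 18.6% had more. In Foxh1, 26 of 30 EpiSC ZIC2 peaks were matched by 31 of 32 activin-free peaks, so the higher count came from peaks that were divided. A gene was tested for a TF if its window held at least 5 peaks in both cultures together. By a rule of at least 2-fold, no member was lower (background 1.04%) or higher (0.0822%). Of the EpiSC peaks, 81.9% (76.2 to 86.7) overlapped an activin-free ZIC2 peak, against 78.9% of the whole list. The 41 unmatched peaks had a median score of 68.5, and the 185 matched ones a median of 250.

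OTX2 peaks were fewer in activin-free culture. There were 91 in EpiSCs and 63 in activin-free culture, a ratio of 0.692 (0.494 to 0.965), while the whole OTX2 list was 1.10 times as long in activin-free culture. In 9 of 10 members the OTX2 count was lower, with a background of 54.3%, and the median of the members' ratios, after adding 1 to each count, was 0.668 against 0.909 over all tested genes. Smad2 was the exception, with 6 peaks in EpiSCs and 7 in activin-free culture, and 34.6% of tested genes likewise had more. By the 2-fold rule only Lefty1 was lower among the 10, from 6 to 2 peaks, with a background of 5.29%, and none was higher (background 3.79%). All OTX2 peaks of Lefty1 also lay in the window of Lefty2, which went from 12 to 9 peaks and was not called. Lefty1 and Lefty2 are thus not independent among the 9 lower members, and without Lefty1 the totals stayed at 91 and 63. Of the EpiSC OTX2 peaks, 62.6% (51.9 to 72.6) overlapped an activin-free peak, against 78.1% of the list.

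The GC content of the windows moved with this difference too. In the lowest quintile, 7.07% of tested genes had fewer OTX2 peaks in activin-free culture, and in the highest 90.5% did, with a median ratio of 0.667. Of the EpiSC OTX2 peaks in gene windows of the highest quintile, 62.0% were matched in activin-free culture, close to the 62.6% at the members. Among 22 tested genes of a list of 26 other pathway genes, OTX2 peaks were fewer in 11 and more numerous in 9. The shares over all tested genes were 54.3% and 34.6%. The median ratio of these other pathway genes was 0.976, and their window GC content was not compared with that of the members.

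The OTX2 peaks were also wider in activin-free culture, with a median width of 1034 bp against 803 bp over the whole lists. By summed width, the activin-free to EpiSC ratio in the windows was 0.905. The summed width of the whole OTX2 lists was not computed, so this ratio has no list value beside it. By count, the whole OTX2 list was 1.10 times as long in activin-free culture. In Skil, 7 of 10 EpiSC OTX2 peaks were matched by 4 of the 6 activin-free peaks, so part of the lower count there came from peaks that were joined.

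**Figure D2:**
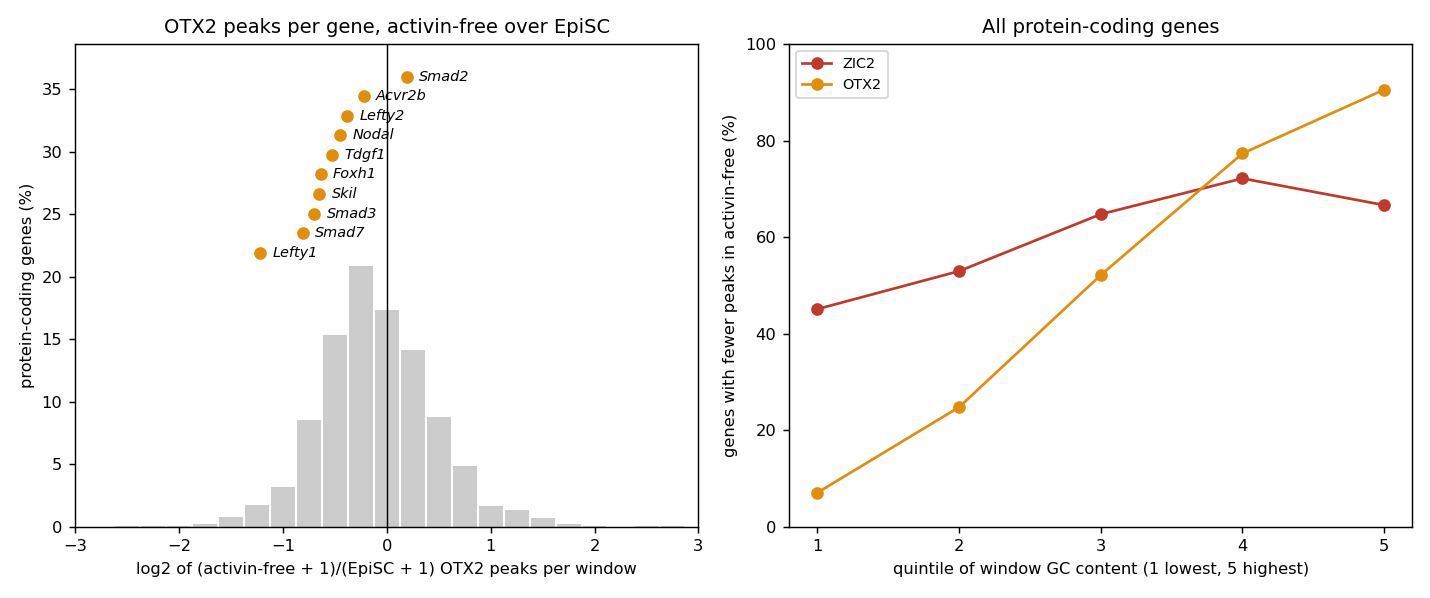
Left, distribution over tested protein-coding genes of the log2 ratio of OTX2 peaks per window, activin-free over EpiSC, with 1 added to each count; points mark the 10 members and their heights only separate the names. Right, percentage of tested genes with fewer peaks in activin-free culture by quintile of window GC content, for ZIC2 and OTX2. Of the members, 9 lie below 0 on the left, and the OTX2 line on the right rises from 7.07% to 90.5%.

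POU5F1 went the other way, with 19 peaks in EpiSCs and 28 in activin-free culture (ratio 1.47, 0.794 to 2.79), and its whole list was 2.03 times as long. With only the 50000 highest-scoring peaks of each list, the ratio in the windows was 0.769, which is below 1. All 19 EpiSC POU5F1 peaks overlapped an activin-free peak, as did 98.3% of the list. Of 6 members tested for POU5F1, 4 had more peaks (background 91.5%) and none fewer (1.27%). SOX2 had 21 and 19 peaks (0.905, 0.460 to 1.77), with 14 of the 21 matched (66.7%), and the list ratio was 1.38. When each list was limited to its 50000 highest-scoring peaks, the SOX2 ratio was 0.562, from 16 and 9 peaks. With a score of at least 100, 4 of 9 EpiSC SOX2 peaks (44.4%) were matched. Of 2 members tested for SOX2, Skil had fewer peaks and Smad2 the same number, where 16.7% of genes had fewer and 69.9% more. Neither passed the 2-fold rule (background 0.857% lower and 14.9% higher). POU3F1 had 1 and 4 peaks, with a ratio of 4 (0.396 to 197).

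**Figure D3:**
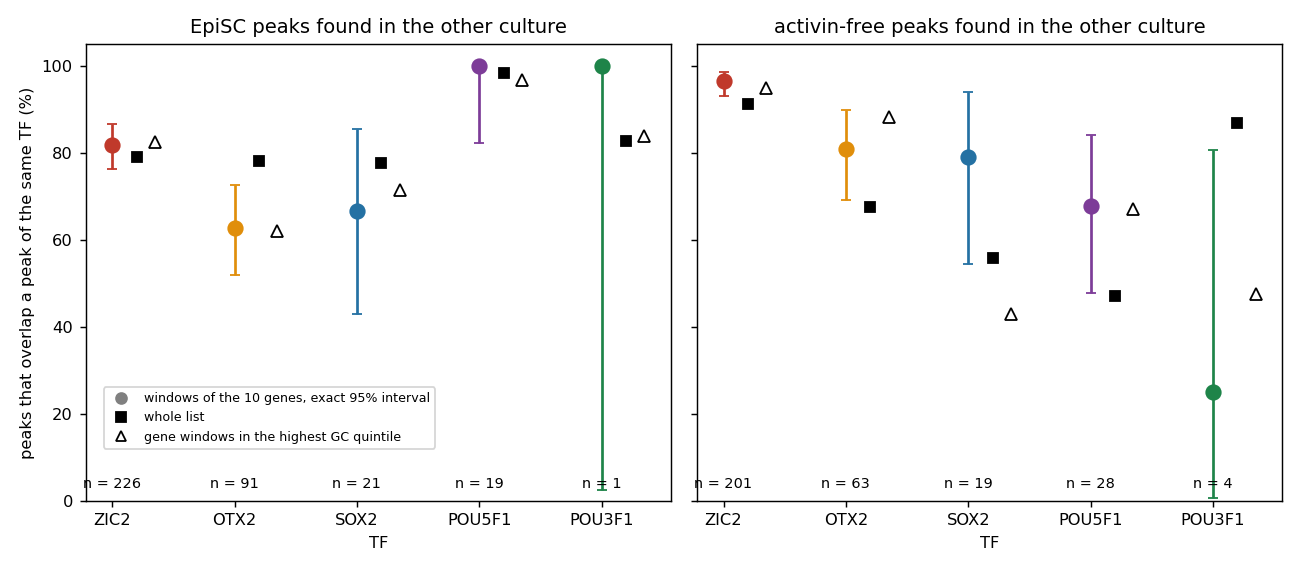
Percentage of peaks in the windows of the 10 genes that overlap a peak of the same TF in the other culture by at least 1 bp, with exact 95% binomial intervals, beside the whole list (squares) and gene windows in the highest GC quintile (triangles); n is the number of peaks. For OTX2 in EpiSCs the windows are at 62.6%, the list at 78.1% and the highest GC quintile at 62.0%.

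Combinations of TFs differed from the whole lists mainly for OTX2, SOX2 and POU5F1. In EpiSCs 40.7% (30.5 to 51.5) of OTX2 peaks at the members overlapped a ZIC2 peak, against 17.8% of the OTX2 list. Seen from ZIC2, 14.6% of peaks overlapped OTX2, against 14.8% of the ZIC2 list. The ZIC2 share at the members was 4.87% in EpiSCs and 5.97% in activin-free culture where a reciprocal overlap of 50% was required. In gene windows of the highest GC quintile the OTX2 share was 41.6%, close to that at the members. A ZIC2 peak that overlapped OTX2 was found in 9 of 10 members in EpiSCs, all but Smad2, and in 7 of 10 in activin-free culture, with backgrounds of 69.1% and 64.7%. In activin-free culture the OTX2 share was 34.9% (23.3 to 48.0), against 12.0% of the list and 35.1% in the highest GC quintile. SOX2 peaks overlapped OTX2 in 9 of 21 cases (42.9%, 21.8 to 66.0), against 12.3% of the list and 32.6% in the highest GC quintile. POU5F1 peaks overlapped POU3F1 in 1 of 19 cases (5.26%, 0.133 to 26.0), against 51.7% of the list and 5.34% in the highest GC quintile. A POU3F1 peak that overlapped POU5F1 was found in 1 of 10 members in EpiSCs (background 34.5%) and in 2 of 10 in activin-free culture (background 43%).

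Nodal, the ligand, lies at chr10:60880720-60888086 on the plus strand. Its window held 26 ZIC2 peaks in EpiSCs and 26 in activin-free culture, 14 and 10 of OTX2, 0 and 1 of SOX2, 2 and 3 of POU5F1, and none of POU3F1 in either. ZIC2 and OTX2 coincided at 4 places upstream of the gene, between 12 kb and the TSS. At the first, centred at -11.8 kb in EpiSCs, the ZIC2 score was 1665 in EpiSCs and 3100 in activin-free culture, and the OTX2 score was 411 and 652. These ZIC2 scores lay above 96.2% and 97.5% of their lists, and these OTX2 scores above 95.7% and 96.4%. At the second, where the EpiSC ZIC2 peak lay at -9.58 kb, the ZIC2 score was 1028 in EpiSCs and 1631 in activin-free culture. Here the EpiSC OTX2 peak scored only 50.5 and had no activin-free match, while another OTX2 peak of 58.7 lay beside it in activin-free culture.

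At the third, at -7.86 kb, the OTX2 score was 413 in EpiSCs and 297 in activin-free culture. The ZIC2 scores there were 95.3 and 197, above 28.8% and 49.7% of their lists. At the fourth, the ZIC2 peak centred at -1.93 kb scored 2243 in EpiSCs and 3100 in activin-free culture, beside OTX2 scores of 99.99 and 142. The ZIC2 scores there lay above 98.1% and 97.5% of their lists, and the OTX2 scores above 50.5% and 59.6%. All 4 upstream places therefore carried ZIC2 and OTX2 peaks in both cultures. At the second, however, the OTX2 peaks of the cultures did not overlap and both scored near the lowest score of 50. The OTX2 peak with the highest score in the window was not in Nodal but 26.3 kb downstream of its TSS within Eif4ebp2, a translation regulator, and it scored 965 and 963. The 5 EpiSC OTX2 peaks without a match scored 50.5 to 118.

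The sequence at the fourth place is shown because it is the pair of peaks closest to the Nodal promoter. It is from mm9, plus strand, chr10:60878913-60879112, centred on the overlap, and the capitals mark the one match to the SOX2 letters (ACAATA on the minus strand).
Nodal ZIC2 and OTX2 site: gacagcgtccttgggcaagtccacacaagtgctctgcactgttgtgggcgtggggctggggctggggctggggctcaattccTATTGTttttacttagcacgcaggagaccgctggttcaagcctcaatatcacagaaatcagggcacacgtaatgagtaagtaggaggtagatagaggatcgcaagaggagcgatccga

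The letters searched in each 200-base stretch, on both strands, were GGATTA for OTX2, CAGCAGG for ZIC, AATNCACA for FOXH1 and CAGAC for SMAD. For SOX2 they were ACAAAA or ACAAAG or else ACAATA or ACAATG, and for POU factors ATGCAAAT or else ATGCATAT. Matches to CAGAC, which are frequent, are not marked in capitals. A match is a description of the letters and not evidence of binding. Over the 39 ZIC2 and OTX2 overlaps in the windows in EpiSCs, 7.69% held the OTX2 letters, 46.2% a SOX2 set, 7.69% the ZIC letters and 2.56% the FOXH1 letters. Over all 19446 such overlaps the shares were 12.0%, 36.3%, 12.1% and 3.13%.

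Lefty2 and Lefty1, which encode secreted inhibitors of Nodal, lie in tandem on chromosome 1, Lefty2 at chr1:182823239-182829234 and Lefty1 at chr1:182865153-182868531, both on the plus strand. The Lefty1 window held 25 ZIC2 peaks in EpiSCs and 21 in activin-free culture, and the Lefty2 window 19 and 17. Lefty1 had an OTX2 count of 6 in EpiSCs and 2 in activin-free culture, and Lefty2 one of 12 and 9. The ZIC2 peak over the Lefty1 TSS scored 2487 and 2603, and that over the Lefty2 TSS 174 and 190.

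From 4 kb upstream of Lefty2 to the Lefty1 TSS there were 4 OTX2 peaks in EpiSCs and none of them had an activin-free match. Their EpiSC scores were 142 at -3.95 kb from the Lefty2 TSS, and 57.9, 158 and 56.6 at -24.0, -10.6 and -8.09 kb from the Lefty1 TSS. The ZIC2 peak at -3.84 kb from the Lefty2 TSS was kept, with scores of 656 and 313. All 6 OTX2 peaks further upstream of Lefty2, between -10.3 and -42.9 kb from its TSS, were matched, and so were the 2 peaks beyond Lefty1, at 4.24 and 12.7 kb from its TSS.

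The EpiSC peak set about 10 kb upstream of Lefty1 combined ZIC2 (score 87.9), OTX2 (158) and SOX2 (174), the only place in the Lefty1 window with 3 TFs in EpiSCs. None of these 3 peaks overlapped a peak of the same TF in activin-free culture. Peaks of ZIC2 on either side of it, at -12.4 and -7.40 kb, were present in both cultures, with scores of 411 and 483 for the first and 122 and 165 for the second. The unmatched ZIC2 peak scored above 25.5% of its list, the OTX2 peak above 72.8% and the SOX2 peak above 80.0%.

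The sequence of this place is shown because the peaks of all 3 TFs there lacked a match. It is from mm9, plus strand, chr1:182854918-182855117, and the capitals mark 2 matches to the FOXH1 letters on the minus strand and 2 to the SOX2 letters.
Lefty1 upstream site: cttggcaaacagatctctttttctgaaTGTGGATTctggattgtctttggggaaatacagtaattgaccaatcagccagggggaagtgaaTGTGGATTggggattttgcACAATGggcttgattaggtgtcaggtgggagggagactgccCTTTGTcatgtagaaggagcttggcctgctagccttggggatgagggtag

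It was the only 1 of the 39 overlaps in the windows with at least 2 FOXH1 matches, and 13 of all 19446 (0.0669%) had as many. The count of paired matches was made after this sequence was seen. The sequence upstream of Lefty2, where the OTX2 peak lacked a match and the ZIC2 peak was kept, is shown beside it. It is from mm9, plus strand, chr1:182819191-182819390, and the capitals mark a match to the ZIC letters on the minus strand.
Lefty2 upstream site: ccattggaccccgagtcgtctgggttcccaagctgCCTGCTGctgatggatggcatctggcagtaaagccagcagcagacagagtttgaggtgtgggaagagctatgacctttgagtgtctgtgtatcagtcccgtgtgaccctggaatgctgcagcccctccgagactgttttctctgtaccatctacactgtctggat

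**Figure D4:**
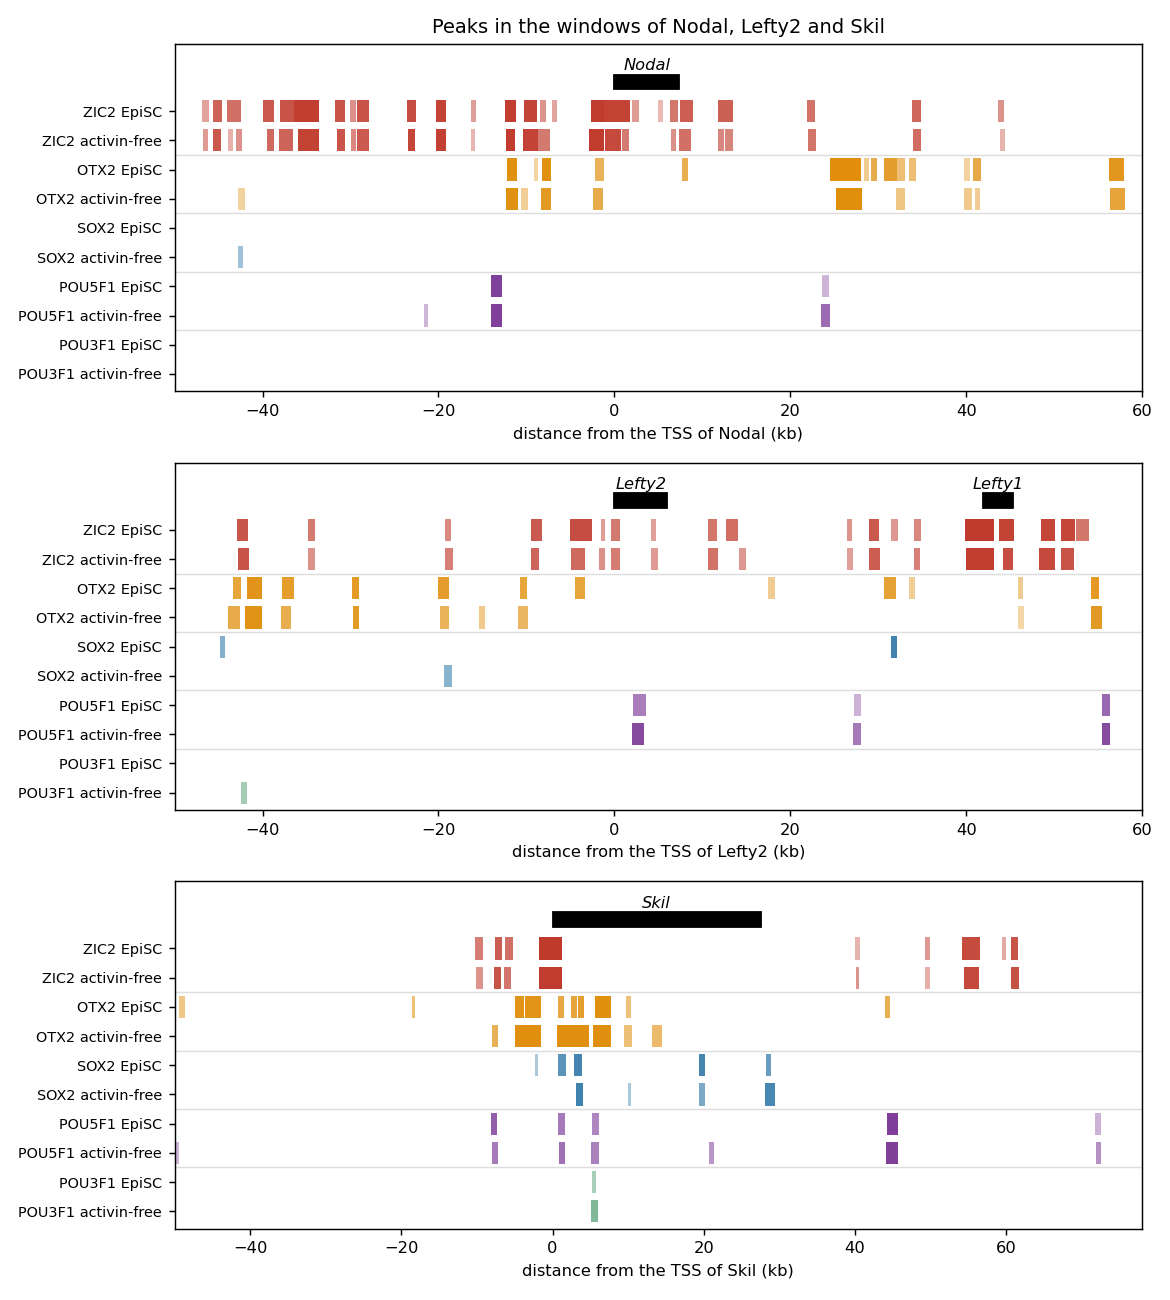
Peaks of the 5 TFs in both cultures in the windows of Nodal, Lefty2 (with Lefty1) and Skil, by distance from the TSS in kb; each block is 1 peak drawn at its width, darker for a higher rank of its score within its list, and black bars are the genes. Between Lefty2 and Lefty1 the OTX2 blocks are in the EpiSC row only, and at Nodal most ZIC2 and OTX2 blocks upstream of the gene are in both rows.

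Tdgf1, the co-receptor, lies at chr9:110842114-110848662 on the minus strand. It had 15 ZIC2 peaks in EpiSCs and 13 in activin-free culture, 12 and 8 of OTX2, 1 and 1 of SOX2, and 2 and 2 of POU5F1. The OTX2 peak at -1.39 kb from its TSS scored 834 in EpiSCs, above 99.6% of the list, and 492 in activin-free culture, above 93.3%. It lay on the ZIC2 peak already described at the TSS, which scored 1046 in EpiSCs. The SOX2 peaks were at different places, at -27.4 kb in EpiSCs and -48.7 kb in activin-free culture.

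Acvr2b, a type II receptor, lies at chr9:119311562-119342619 on the plus strand and had 30 and 27 ZIC2 peaks, 6 and 5 of OTX2, 2 and 2 of POU5F1, and no SOX2 peak in either culture. Its TSS peak of ZIC2 scored 1780 in EpiSCs and 2191 in activin-free culture. Of its 6 EpiSC OTX2 peaks, 5 were matched. A POU3F1 peak of score 122 joined a POU5F1 peak in activin-free culture, at -10.94 kb, where the POU5F1 score was 126 in EpiSCs and 333 in activin-free culture.

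Smad2 and Smad3, the receptor-activated transducers, had unlike peak sets. Smad2 lies at chr18:76401234-76465385 on the plus strand and had 8 and 7 ZIC2 peaks, fewer than any other member in either culture. It held 10 SOX2 peaks in each culture, 10 of the 21 and of the 19 SOX2 peaks over all windows. Of its 10 EpiSC SOX2 peaks, 9 were matched, and the SOX2 peak in an intron 41.5 kb from the TSS scored 566 and 458. The OTX2 peak in an intron 3.92 kb from the TSS scored 1180 in EpiSCs and 1752 in activin-free culture, above 99.9% of the list in both, and overlapped SOX2. All 6 EpiSC OTX2 peaks of Smad2 were matched. POU5F1 had 1 peak in EpiSCs and 5 in activin-free culture, and Smad2 was the only member called higher for POU5F1 among 6 tested, with a background of 36.3%.

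Smad3 lies at chr9:63494574-63605801 on the minus strand and has the longest window of the 10, at 211 kb. It had the most ZIC2 peaks, 49 in EpiSCs and 37 in activin-free culture, and the ZIC2 peak over its TSS scored 3207 and 3100. In EpiSCs this ZIC2 peak was joined by an OTX2 peak at -0.867 kb (score 159) and a SOX2 peak at -0.769 kb (score 60.5), both upstream of the TSS. In activin-free culture the SOX2 peak scored 125 and neither this OTX2 peak nor those at 1.27 and -2.11 kb had a match. Of its 12 EpiSC OTX2 peaks 4 were matched, the same share as the 2 of 6 at Lefty1.

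Foxh1, the DNA-binding partner of the SMADs, lies at chr15:76498714-76500378 on the minus strand, and 9 other protein-coding genes have their starts in its window. It had 30 and 32 ZIC2 peaks, 13 and 8 of OTX2, and no SOX2 or POU5F1 peak in either culture. The short gene was covered by a broad ZIC2 peak of 4467 bp and score 2053 in EpiSCs. In activin-free culture the same span was divided among adjoining ZIC2 peaks of 2374, 1263 and 816 bp. Their scores were 1215, 1198 and 242, and the last of them covered the TSS. The OTX2 peak over the TSS scored 269 and 184.

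Smad7, an inhibitory SMAD, lies at chr18:75527183-75555589 on the plus strand and had 30 and 26 ZIC2 peaks, with a score of 3100 over its TSS in both cultures. Its OTX2 count was 6 in EpiSCs and 3 in activin-free culture. In EpiSCs 2 merged sites held ZIC2, OTX2 and SOX2, one at -6.51 kb and one around the TSS, and in activin-free culture neither held an OTX2 peak. Around the TSS the OTX2 peak lay at 0.766 kb and the SOX2 peak at -0.553 kb, apart from each other and joined only through the ZIC2 peak of 3680 bp. The OTX2 scores there had been 82.0 and 99.4. The SOX2 peak at -6.58 kb was matched, with scores of 92.6 and 122, and the one at -0.553 kb was not.

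Skil, which encodes a co-repressor that binds SMADs, lies at chr3:30993980-31021499 on the plus strand and carried 2 sites with at least 3 TFs in EpiSCs, as many as Smad7, and 3 in activin-free culture, the most of the 10. ZIC2, OTX2, SOX2 and POU5F1 lay in 1 merged site over its TSS in both cultures, the only site with 4 TFs in any of the windows. In activin-free culture this site spanned 9763 bp, and its SOX2 peak overlapped neither the ZIC2 nor the POU5F1 peak. That SOX2 peak was joined to them only through an OTX2 peak of 4239 bp. The TSS peak of ZIC2 scored 2946 and 3100. OTX2 had 10 peaks in EpiSCs and 6 in activin-free culture, with the highest score at 6.66 kb in EpiSCs (502) and at -3.25 kb in activin-free culture (853). A second site 6.46 kb from the TSS carried OTX2, POU5F1 and POU3F1 in both cultures, with POU3F1 scores of 57.7 and 128. For merged sites with at least 3 TFs, no share over all protein-coding genes was computed. The counts of such sites at Skil and Smad7 therefore have no background beside them.

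The sequence of the part of the Skil site where the peaks of all 4 TFs overlapped in EpiSCs is shown because it holds letters for several of the TFs. It is from mm9, plus strand, chr3:30994888-30995087, about 1.01 kb past the TSS, and the capitals mark, in order, matches to the POU letters, 2 of the SOX2 sets and the OTX2 letters.
Skil site: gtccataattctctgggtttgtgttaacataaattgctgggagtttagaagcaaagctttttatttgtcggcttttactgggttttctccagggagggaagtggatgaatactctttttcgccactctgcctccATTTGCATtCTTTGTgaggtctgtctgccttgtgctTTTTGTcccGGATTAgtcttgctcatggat

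The SOX2 peak over this sequence scored 116 in EpiSCs and had no activin-free match, while the POU5F1 peak scored 133 and 276. The POU letters were in 2.56% of the 39 ZIC2 and OTX2 overlaps in the windows and in 2.32% of all such overlaps. The sequences shown so far came from the site with most TFs within 20 kb of the TSS of each gene. Those drawn in the same way at Tdgf1 and Foxh1 are not shown, and held no match except to CAGAC at Tdgf1.

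Some POU5F1 peaks at the members lay on stretches in which purines and pyrimidines alternate. An alternating run of purines and pyrimidines, 20 bp or longer, was found within 100 bp of the midpoint of 9 of 19 EpiSC peaks (47.4%) and 11 of 28 activin-free peaks (39.3%). The shares over the whole lists were 29.6% and 21.4%. The counts at the members are small and depend on the cut-off. No interval was computed for them, and no share was computed for the highest GC quintile. The longest run at the Lefty2 peak was 23 bp in EpiSCs and 19 bp in activin-free culture, and at a Tdgf1 peak 20 and 19 bp. Among ZIC2 peaks of the EpiSC list the share was 0.682%, and among POU3F1 peaks 4.14%. The POU letters were found in 1 of 19 EpiSC POU5F1 peaks at the members, against 18.5% of the list.

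The POU5F1 peaks with the highest EpiSC scores in the windows were at Nodal, at -13.4 kb, with 1003 in EpiSCs and 3018 in activin-free culture, and at Skil, 45.0 kb from the TSS, with 1573 and 3100. These scores lay above 96.6% and 97.1% of their lists at Nodal, and above 99.0% and 97.3% at Skil. The sequences of both peaks are shown because both hold several such runs, and the capitals mark alternating stretches of at least 20 bp. Both are from mm9, plus strand, at chr10:60867231-60867430 and chr3:31038849-31039048.
Nodal POU5F1 peak: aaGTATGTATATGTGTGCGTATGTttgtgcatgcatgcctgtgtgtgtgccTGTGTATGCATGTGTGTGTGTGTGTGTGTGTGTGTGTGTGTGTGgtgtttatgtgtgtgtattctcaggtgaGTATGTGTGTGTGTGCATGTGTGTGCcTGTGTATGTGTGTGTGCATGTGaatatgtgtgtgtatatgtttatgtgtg
Skil POU5F1 peak: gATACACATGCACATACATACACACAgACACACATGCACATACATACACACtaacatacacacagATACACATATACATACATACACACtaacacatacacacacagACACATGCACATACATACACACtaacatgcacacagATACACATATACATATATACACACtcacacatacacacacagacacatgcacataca

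The longest stretch was 44 bp at the Nodal peak and 25 bp at the Skil peak in EpiSCs. The part of these stretches in the POU5F1 peaks was not tested.

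**Figure D5:**
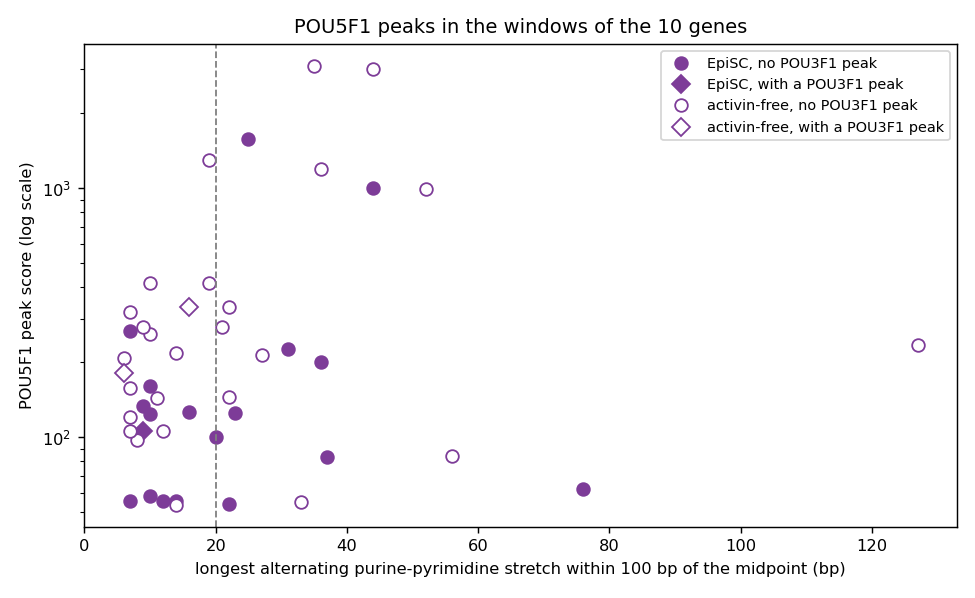
Score (log scale) of each POU5F1 peak in the windows against its longest alternating purine-pyrimidine stretch within 100 bp of the midpoint, in EpiSCs (filled) and activin-free culture (open); diamonds overlap a POU3F1 peak and the dashed line is at 20 bp. Of the peaks, 9 of 19 in EpiSCs and 11 of 28 in activin-free culture lie at or beyond the line, and no diamond does.

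Among the 26 other pathway genes, the highest EpiSC densities over all 5 TFs were 44.4 peaks per 100 kb at Acvr2a, a type II receptor gene, and 44.0 at Drap1, which encodes a FOXH1-binding co-repressor. The lowest were 9.22 at Bambi, a pseudoreceptor, and 11.5 at Gdf3, a ligand. The members ran from 15.2 at Smad2 to 42.3 at Foxh1. The high totals of Acvr2a and Foxh1 had unlike makeup, since Acvr2a had 2 ZIC2 and 36 POU3F1 peaks in EpiSCs and Foxh1 had 30 and 0. ZIC2 density in EpiSCs was above the median of all protein-coding genes in 16 of the 26 genes. A ZIC2 peak covered the TSS of 22 of the 26 in EpiSCs. The backgrounds were 61.6% of all protein-coding genes and 84.1% in the highest GC quintile.

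The genes most like Nodal in their densities over the 10 lists were Cspg4, Upk1a and Lgi4, at Euclidean distances of 0.520 to 0.559 on log2 densities, where the median over all genes was 4.02. Those most like Lefty1 were Ctdsp2, Tmem51 and Rbfox3 (1.06 to 1.10, median 4.47), and those most like Tdgf1 were Dyrk3, Batf2 and Arfgef2 (0.430 to 0.494, median 3.17). Lefty1 was thus further from its nearest genes than Nodal or Tdgf1 from theirs.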

How the data were processed

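The authors aligned reads to mm9 with Bowtie2 (version not given in the sources used here), called peaks with MACS against the input and deposited 1 BED list per TF and culture, whose score column is -10 log10 p. No replicates were pooled and read depth is unknown. Peaks on chromosomes 1 to 19, X and Y were used as deposited, with the mm9 GENCODE annotation. Peaks were counted by midpoint in windows, and overlaps required at least 1 bp. Genes with at least 5 peaks in both cultures together were compared, with 1 added to each count and a 2-fold rule. Merged sites were named where they held at least 3 TFs, and otherwise the highest-scoring peak per TF. The members and lists were chosen with earlier results of these data known. Alternatives were a score of at least 100, the 50000 highest-scoring peaks, merging within 150 bp, 10 and 100 kb flanks, and summed width or reciprocal overlap of 50%. The counting steps were tested on simulated data. Python 3.11.15, numpy 2.4.6, scipy 1.17.1 and pysam 0.24.0 were used.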

Additional observations from a re-analysis of the deposited data

How the results depend on the processing

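With only the 50000 highest-scoring peaks of each list, the OTX2 ratio was 0.49, the POU5F1 ratio 0.769, and the matched shares of EpiSC peaks were 89.8% for ZIC2, 49% for OTX2 and 69.2% for POU5F1. With a reciprocal overlap of 50%, the matched share of OTX2 was 51.6%, and ZIC2 peaks overlapping OTX2 were 4.87% in EpiSCs and 5.97% in activin-free culture. POU3F1 peaks overlapping POU5F1 in activin-free culture were 100% with a score of at least 100 and with 10 kb flanks. The other 71 alternative values stayed within the 95% interval of the main value. For POU3F1 these intervals were very wide. The share of EpiSC POU3F1 peaks overlapping POU5F1 was 25% with 100 kb flanks, within an interval of 2.5% to 100%. Some POU3F1 alternatives gave no value because no EpiSC peak was left. Chosen after seeing the data, the OTX2 ratio was 0.614 over the 6 members in the highest GC quintile and 0.75 over the other 4. Peaks in the windows of both Lefty1 and Lefty2 counted in both of these groups. Leaving out 1 member gave OTX2 ratios from 0.659 to 0.709. No paired analysis was possible because there was 1 library per TF and culture, which also left no replicate to leave out. Scores near 3100 are capped, and small counts limited SOX2, POU5F1 and POU3F1.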
